A study of Homo sapiens with 8 samples.

Results

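The genes described here encode subunits of the mitochondrial respiratory chain and of ATP synthase. They were chosen by name from the transcripts that the combined long-read assembly assigns to a gene: the mitochondrial MT-ND, MT-CO, MT-CYB and MT-ATP genes, and the nuclear NDUF, UQCR, COX4 to COX8 and ATP5 subunit genes. The rule found 88 genes of 29937 genes and loci with reads, and 216 transcripts of 96614. Of the 88 genes, 13 lie on mitochondrial DNA (7 of complex I, 1 of complex III, 3 of complex IV and 2 of ATP synthase) and 75 lie in the nucleus (37, 9, 11 and 18). Complexes were assigned by gene name alone, so every NDUF gene counts under complex I, including NDUFA4, known as a subunit of complex IV. The name pattern leaves out some true subunits, such as COX4I1, CYC1 and the SDH genes of complex II. These belong to a related list near the end, where only some of its genes are described singly. The study compared H1, a human embryonic stem cell line, as undifferentiated pluripotent cells (hPSC) and after differentiation for 5 days to ectoderm, endoderm or mesoderm. There were 2 repeats of each of the 4 groups, and polyadenylated RNA was read on a PacBio Sequel II. Cells bound for endoderm received WNT3A with Activin A. Cells bound for mesoderm received VEGF, BMP4 and bFGF, with Activin A on the opening day. Cells bound for ectoderm received the inhibitors A83-01, PNU-74654 and Dorsomorphin. All groups derive from the same line, and short-read libraries of the series were not analysed here. The labels do not say whether repeats are separate cultures, so p-values measure only the spread between these samples, which may be technical.

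Respiratory complexes I, III and IV move electrons from NADH and ubiquinol to oxygen and pump protons across the inner mitochondrial membrane, and ATP synthase uses the proton gradient to make ATP. Mitochondrial DNA encodes core membrane subunits of these machines, and its genes are transcribed as long polycistronic precursors from which the mRNAs are cut, often at flanking tRNAs. All other subunits come from nuclear genes whose proteins are imported, so each working complex needs products of both genomes. Pluripotent cells are known for relying strongly on glycolysis, and the use of respiration is known to change as they leave pluripotency.

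The compact layout of mitochondrial DNA is shown first, because a read from overlapping genes can carry both reading frames. The stretches below run 5′ to 3′ on the plus strand of GRCh38, from the reference transcripts, and the capitals mark the bases that belong to both genes.
MT-ATP8 into MT-ATP6, chrM:8512-8572: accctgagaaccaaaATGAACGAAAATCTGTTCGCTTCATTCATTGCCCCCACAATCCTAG
MT-ND4L into MT-ND4, chrM:10730-10766: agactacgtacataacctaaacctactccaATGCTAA
The shared part was 46 bases for MT-ATP8 with MT-ATP6 and 7 bases for MT-ND4L with MT-ND4. How the deposited counting assigned a read that spans both genes is not given in the sources used here, so the split within each pair is uncertain. Another overlap comes from the assembly: the transcript counted for MT-CO3 (chrM:8573-9990) starts inside MT-ATP6 (chrM:8527-9207) and covers 635 of its 681 bases, so the values of MT-CO3 and MT-ATP6 are uncertain in the same way.

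The nuclear members are scattered over the chromosomes, and their promoters hold recognition sequences of factors known to drive mitochondrial genes. Promoters of 61 of the 75 nuclear members were found in RefSeq on GRCh38.p14, in windows of 300 bases from 250 before to 50 after each annotated start. In 58 of the 61 a RefSeq start lay within 100 nt of the start of the most read transcript of the gene. The letters searched, on both strands, were GCGCA and GCGC with any 1 base between them for NRF1, CCGGAAGT for GABPA, AAGATGGC for YY1 and CAAGGTCA for ESRRA. The matches below belong to genes whose levels differ most between the layers in the results that follow, each with its flanks and the match in capitals, written on the strand of the gene.
UQCRC1, NRF1, chr3:48609675-48609702, minus strand: tacggtactGCGCCTGCGCcgcgaccgc
NDUFA11, NRF1, chr19:5903870-5903897, minus strand: cggtccccgGCGCGTGCGCgcgatccat
ATP5F1A, GABPA, chr18:46098329-46098354, minus strand: aggggcagtACTTCCGGgtcaggtgg
COX8A, GABPA, chr11:63974592-63974617, plus strand: agctccagaACTTCCGGccagcgcag
COX8A, ESRRA, chr11:63974623-63974648, plus strand: ttggcttccTGACCTTGggctacggc
ATP5PF, GABPA, chr21:25734896-25734921, minus strand: gagccagggCCGGAAGTagagcggag
NDUFS4, YY1, chr5:53560651-53560676, plus strand: gcctgcagcAAGATGGCggcggtgtc
A match to NRF1 was in 14 of the 61 promoters (23.0%, against 6.98% of the 27305 genes in the table), to GABPA in 11 (18.0% against 4.95%), to YY1 in 11 (18.0% against 3.52%) and to ESRRA in 3 (4.92% against 1.6%). The 27305 genes were not limited to genes with reads here. No string contains another, and a match describes the letters, not a bound site. In all, 32 of the 61 had at least 1 of these matches and 7 had at least 2 kinds.

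Total counts were 503840 to 586183 in 6 libraries, and 967206 and 1180888 in the ectoderm repeats. A floor of 3 counts was therefore worth 2.54 to 5.95 CPM, the counts scaled to the library total. The 2 hPSC repeats differed more than other repeats: a chi-square test of their counts over genes gave 8.22 per degree of freedom, against 1.67 to 2.78 in the other groups. The summaries against hPSC are given with and without each hPSC repeat. The libraries also differed in the length of what they counted: the mean assembled transcript length per read was 4406 and 4650 nt for ectoderm, 3765 and 3840 nt for mesoderm, 3298 and 3114 nt for hPSC, and 3073 and 2975 nt for endoderm. Markers of each label were present: POU5F1 had 372 and 352 reads in hPSC and at most 69 in a differentiated library, PAX6 170 and 79 in ectoderm and at most 6 elsewhere, SOX17 150 and 16 in endoderm and 0 elsewhere, and HAND1 263 and 274 in mesoderm and at most 20 elsewhere. Exceptions were NANOG and TDGF1, which stayed high in endoderm, LIN28A, which was highest in ectoderm, and the ectoderm marker SOX1, at 0 in every library. The hPSC marker SOX2 had 71 and 5 reads in hPSC, 180 and 129 in ectoderm, where totals were larger, and 0 in endoderm and mesoderm. The ectoderm marker OTX2 had more reads in endoderm (241 and 238) than in ectoderm (181 and 130). Of the mesoderm markers, FOXF1 and MIXL1 were at 0 in both mesoderm libraries, TBXT had 1 and 0 reads there, and KDR had 1 and 1 there against 57 and 44 in hPSC. Of 5 neuron markers, 4 had reads, and their summed level was 1648 and 1714 CPM in endoderm against 43.3 to 342 CPM elsewhere, most of it TUBB3 (ELAVL4 was at 0 in every library, and DCX at 0 in endoderm). The 4 fibroblast markers summed to 4543 and 5321 CPM in mesoderm against 125 to 377 CPM elsewhere, and the 3 blood markers were at 0 in all libraries. The part of these cells or genes in the results below was not tested. In these bulk libraries, fewer cells of a type and less RNA per cell cannot be told apart.

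Transcripts of the 13 mitochondrial genes took a larger share of the reads in hPSC and endoderm than in ectoderm and mesoderm. They made up 1.87% and 4.07% of all counts in the 2 hPSC repeats, 2.33% and 3.01% in endoderm, 1.08% and 0.915% in ectoderm, and 1.08% and 1.20% in mesoderm. Each hPSC and each endoderm library was above every ectoderm and mesoderm library, and hPSC repeat 2 had more than 2 times the share of hPSC repeat 1. The nuclear members, summed, took 0.963% and 1.30% in hPSC, 1.07% and 1.15% in endoderm, 0.662% and 0.616% in ectoderm, and 0.688% and 0.645% in mesoderm. The order of the groups was thus the same for both genomes at the level of summed reads, with hPSC and endoderm above ectoderm and mesoderm in every library. Polyadenylated mitochondrial mRNA exceeded nuclear member mRNA everywhere: the ratio of the sums was 1.94 and 3.13 in hPSC, 2.18 and 2.61 in endoderm, 1.63 and 1.49 in ectoderm, and 1.58 and 1.86 in mesoderm. This ratio does not depend on what the rest of the library holds. On a log2 scale its difference from hPSC was -0.66 for ectoderm, -0.53 for mesoderm and -0.05 for endoderm, and no p is given for a sum over chosen genes. Without hPSC repeat 2 these were -0.32, -0.18 and 0.30, and without hPSC repeat 1 they were -1.01, -0.87 and -0.39.

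**Figure D1:**
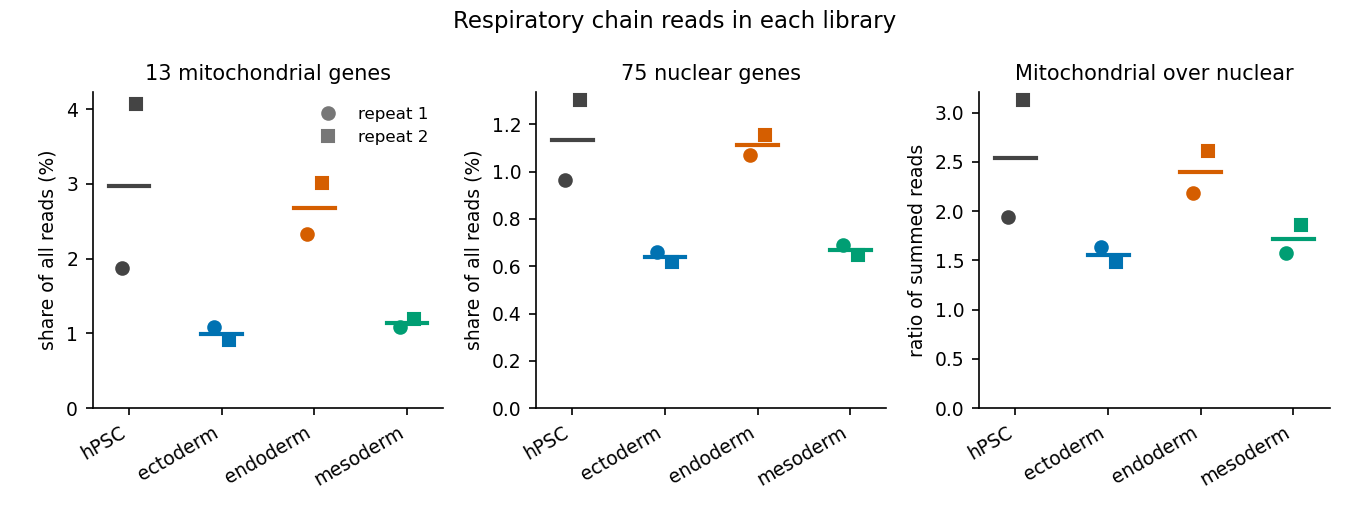
Share of all counts, in percent, taken by the mitochondrial members and by the nuclear members, and the ratio of the 2 sums, in each of the 8 libraries (circle for repeat 1, square for repeat 2, line for the group mean). The mitochondrial share was 1.87% and 4.07% in hPSC and 0.915% to 1.20% in ectoderm and mesoderm, and the gap between the hPSC repeats is the widest of any group.

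The group means differed in order between the complexes. Mitochondrial complex I mRNA took 0.820% ± 0.150 of counts in endoderm and 0.655% ± 0.381 in hPSC (SD, n = 2), whereas mitochondrial complex IV mRNA took 1.65% ± 0.280 in endoderm and 2.15% ± 1.09 in hPSC. By repeat, complex I was 0.714% and 0.926% in endoderm and 0.386% and 0.925% in hPSC. Complex IV was 1.45% and 1.85% in endoderm and 1.37% and 2.92% in hPSC. Both endoderm libraries were thus above hPSC repeat 1 for both complexes. The order of the means depended on hPSC repeat 2 for complex IV and on hPSC repeat 1 for complex I. For nuclear genes, complex III took 0.319% ± 0.0322 in endoderm, 0.240% ± 0.0694 in hPSC, 0.131% ± 0.0160 in mesoderm and 0.0983% ± 0.0131 in ectoderm. Most of the nuclear contrast of ectoderm with hPSC and with endoderm lay in 3 abundant genes, UQCRC1, ATP5F1A and ATP5F1B, which were singled out after their values were seen. Together they took 0.433% ± 0.148 of counts in hPSC, 0.539% ± 0.0337 in endoderm, 0.122% ± 0.0372 in ectoderm, and 0.216% ± 0.00683 in mesoderm. The other nuclear members together took 0.700% in hPSC, 0.572% in endoderm, 0.517% in ectoderm and 0.450% in mesoderm, a flatter profile. Without those 3 genes in the sum, the log2 difference of the ratio between ectoderm and hPSC was -1.04 in place of -0.66.

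Within the mitochondrial genes, MT-CO1, the catalytic core of cytochrome oxidase, was the most abundant in every library. It had 9694 and 20810 CPM in hPSC, 11521 and 14248 in endoderm, 5314 and 3685 in ectoderm, and 5950 and 7395 in mesoderm, and it made up 40.3% to 61.7% of all reads of the 13 genes. Endoderm and hPSC were high and ectoderm and mesoderm low, with no overlap. Per kilobase of transcript, the mean level over the 8 libraries was 6361 CPM for MT-CO1, 3350 for MT-CO2, 1515 for MT-ATP6, 1439 for MT-ND4, 1348 for MT-ND5 and 864 for MT-CO3. Without division by length the order after MT-CO1 was MT-ND5 at 2444 CPM, MT-CO2 at 2291, MT-ND4 at 1982, MT-CO3 at 1225 and MT-ATP6 at 1032. The other 7 genes lay between 83.7 (MT-CYB) and 228 CPM per kilobase (MT-ATP8), so levels differed widely within the mitochondrial set although its genes share precursors. MT-ND6, the complex I subunit encoded on the opposite strand from the others (chrM:14149-14673, minus strand) and known to carry little poly(A) tail, had 99.7 CPM per kilobase.

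For some genes the share of mitochondrial member reads in endoderm differed from that in all other libraries. MT-CO2, a copper-binding subunit of cytochrome oxidase, was 13.6% and 13.8% of mitochondrial member reads in hPSC, 14.0% and 18.4% in ectoderm, 11.1% and 7.24% in mesoderm, and 8.67% and 9.47% in endoderm. Endoderm did not stand apart for MT-CO2, since mesoderm repeat 2 was below both endoderm libraries. MT-CO3, the other structural core subunit, was 8.08% and 6.75% in hPSC, 7.52% and 9.23% in ectoderm, 6.49% and 6.61% in mesoderm, and 4.24% and 4.62% in endoderm, the lowest libraries of all. MT-ATP6, which the transcript counted for MT-CO3 overlaps, was 6.07% and 6.73% in endoderm and 3.28% to 5.86% elsewhere. How reads were split between MT-CO3 and MT-ATP6 is uncertain, so the low MT-CO3 share in endoderm is uncertain too. For MT-ND1 and MT-ND2 endoderm was highest. MT-ND1, which forms part of the quinone site of complex I, was 1.38% and 1.27% of the mitochondrial reads in endoderm and 0.467% to 0.972% in the other libraries. MT-ND2, a proton-pumping subunit, was 1.81% and 1.73% in endoderm and 0.712% to 1.10% elsewhere. MT-CYB, the cytochrome b of complex III, was 0.739% and 0.697% in endoderm and 0.208% to 0.450% elsewhere. Since these are shares of one sum, they do not depend on library totals, and no test was made of them.

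**Figure D2:**
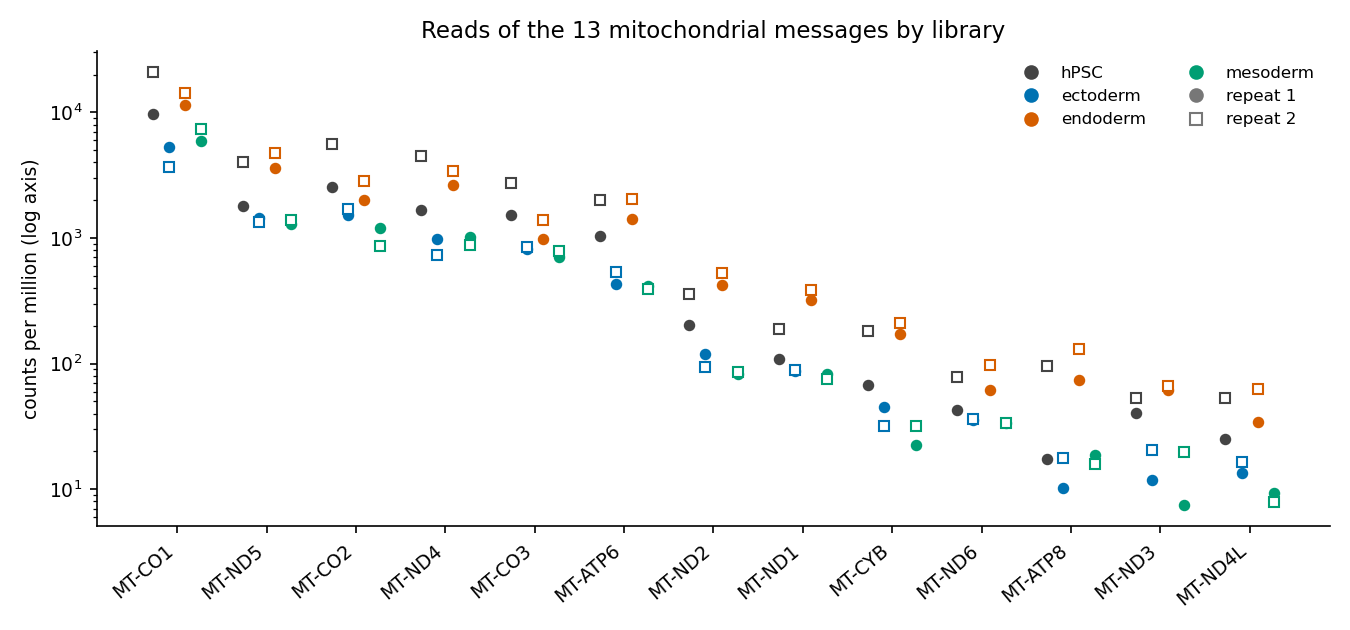
Level of each of the 13 mitochondrial genes in CPM (log axis) in the 8 libraries, coloured by group, with repeat 1 filled and repeat 2 open. MT-CO1 is highest in each library (3685 to 20810 CPM), and for MT-ND1 and MT-ND2 both endoderm libraries lie above all others, at 321 and 382 and at 422 and 522 CPM.

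Against hPSC, all 13 mitochondrial genes were lower in ectoderm, 12 of 13 were lower in mesoderm, and 2 were higher in endoderm. The test was edgeR's quasi-likelihood test over 10847 genes with adjusted p under 0.05, where 48.6% of all genes were called between ectoderm and hPSC (24.8% lower), 35.1% between mesoderm and hPSC (18.2% lower) and 27.2% between endoderm and hPSC (13.4% higher). The median log2 fold change of the 13 genes was -1.87 in ectoderm, -2.01 in mesoderm and 0.70 in endoderm, beside medians over all genes tested of -0.01, 0.01 and -0.13. The size of these medians rested on the hPSC repeats: without hPSC repeat 2 they were -0.99, -1.10 and 1.4, and without hPSC repeat 1 they were -2.40, -2.49 and 0.21. The endoderm median was also 1.11 without endoderm repeat 1 and 0.38 without endoderm repeat 2. These fold changes are scaled by TMM, which matches the bulk of genes between libraries. With library totals only, the median over all genes became 0.43, 0.25 and -0.48 and that of the 13 genes -1.36, -1.69 and 0.37, with 11 lower, 11 lower, and 1 higher and 1 lower. MT-ND4, a proton-pumping subunit of complex I, had 1656 and 4514 CPM in hPSC and 981 and 738 in ectoderm, a log2 fold change of -2.35 ± 0.47 (SE, adjusted p = 0.000912). MT-ATP6, the proton channel subunit of ATP synthase, had 1036 and 2003 CPM in hPSC, 428 and 537 in ectoderm and 412 and 393 in mesoderm. Its fold changes were -2.14 ± 0.40 in ectoderm (adjusted p = 0.000567) and -2.21 ± 0.40 in mesoderm (adjusted p = 0.000682). The hPSC and ectoderm libraries did not overlap for either gene, nor did the hPSC and mesoderm libraries for MT-ATP6. Both calls of MT-ATP6 and the ectoderm call of MT-ND4 were kept under every alternative run. Without hPSC repeat 2 the ectoderm changes were -1.15 for MT-ND4 and -1.31 for MT-ATP6, and the mesoderm change of MT-ATP6 was -1.44. The gene not called in mesoderm was MT-ND6, with 42.4 and 78.3 CPM in hPSC and 33.9 and 33.7 in mesoderm (log2 fold change -1.10 ± 0.43, adjusted p = 0.0586). Single libraries decided part of these counts: in ectoderm the 13 calls became 8 without hPSC repeat 2 and 7 without ectoderm repeat 1, and in mesoderm the 12 became 7 without hPSC repeat 2 and 6 without either mesoderm repeat.

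The 2 genes called higher in endoderm were MT-ND1 and MT-ND2. MT-ND1 (chrM:3305-4262) had 110 and 190 CPM in hPSC, 321 and 382 in endoderm, 87.2 and 88.9 in ectoderm, and 82.8 and 75.4 in mesoderm, so the endoderm libraries stood alone at the top and hPSC lay above ectoderm and mesoderm. Its log2 fold change in endoderm was 1.52 ± 0.35 (adjusted p = 0.00459), a 2.87-fold difference, and it was kept without each library in turn. MT-ND2 (chrM:4470-5511) had 202 and 359 CPM in hPSC, 422 and 522 in endoderm, 119 and 94.1 in ectoderm, and 82.8 and 85.3 in mesoderm. Its change in endoderm, 1.04 ± 0.35 (adjusted p = 0.0396), was not called without hPSC repeat 1 (0.58), endoderm repeat 1 (1.32) or endoderm repeat 2 (0.94). Without hPSC repeat 2, which held the higher mitochondrial share, 11 of 13 genes were called higher in endoderm. Without hPSC repeat 1, 1 gene was called higher and 2 lower. The position of endoderm relative to hPSC therefore hung on which hPSC repeat was used for most of the mitochondrial genes.

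The direct comparisons between layers do not use hPSC levels, although the fit estimates the spread over all 8 libraries. All 13 mitochondrial genes were lower in ectoderm than in endoderm (29.9% of all genes were, of 63.1% called), all 13 were higher in endoderm than in mesoderm (23.2% of all genes, of 47.1% called), and none was called between ectoderm and mesoderm (35.4% of all genes called). Between ectoderm and mesoderm, 0 of 13 also had an unadjusted p under 0.05 in edgeR, DESeq2 called 0, edgeR called 1 lower in ectoderm without either hPSC repeat, and the median log2 fold change was -0.04. The medians were -2.58 for ectoderm against endoderm and 2.67 for endoderm against mesoderm, beside 0.19 and -0.16 over all genes. With library totals only, where all genes shifted to medians of 1.00 and -0.76, they were -1.76 and 2.06, with 11 of 13 called each time, MT-CO3 among those not called. MT-ATP8, a small membrane subunit of ATP synthase, had 73.4 and 130 CPM in endoderm, 10.2 and 17.6 in ectoderm, and 18.8 and 15.9 in mesoderm. Its log2 fold change of ectoderm against endoderm was -3.64 ± 0.60 (adjusted p = 0.000107), the furthest of the 13. MT-CYB had 172 and 210 CPM in endoderm, 44.9 and 32.1 in ectoderm and 22.6 and 31.8 in mesoderm, and its change of endoderm against mesoderm was 3.38 ± 0.50 (adjusted p = 9.22e-05). MT-CO3 was nearest to no change, at -1.29 ± 0.38 for ectoderm against endoderm (adjusted p = 0.00769) and 1.25 ± 0.38 for endoderm against mesoderm (adjusted p = 0.0141). For MT-CO3, the first call was lost without endoderm repeat 2 (-0.93), and the second without endoderm repeat 2 (0.96), mesoderm repeat 1 (1.17) or mesoderm repeat 2 (1.33).

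Transcript length and base composition moved with these contrasts, and the members are short. The tested mitochondrial genes had a median transcript length of 958 nt (208 to 1813) and the tested nuclear members of 884 nt (326 to 10989), against 3826 nt over all genes tested. Genes under 1500 nt were 11 of 13 mitochondrial, 47 of 71 nuclear and 901 of all 10847. In the ectoderm libraries, 8.75% and 8.41% of reads came from transcripts under 1500 nt, against 10.8% and 10.7% in mesoderm, 15.8% and 17.8% in hPSC, and 15.2% and 16.9% in endoderm. Among all 276 genes under 1500 nt with a GC content under 50%, the median log2 fold change of ectoderm against hPSC was -0.68, and 41.3% were lower. In that class, the 11 mitochondrial genes had a median of -1.87 with 11 lower, and the 20 nuclear members had a median of -0.44 with 7 lower. Among the 611 short genes with a GC content of 50% or more, the median over all genes was -1.56 with 75.1% lower, and 20 of 27 nuclear members were lower with a median of -1.22. In this class the nuclear members lay near the background of their length and composition. Among the 9946 genes of 1500 nt or more, the median over all genes was 0.10, with 21.2% lower, and 14 of 24 nuclear members were lower, with a median of -1.11. In ectoderm against hPSC the mitochondrial genes and the long nuclear members thus lay below other genes of their class, and the short nuclear members did not. In mesoderm against hPSC the short nuclear members with a GC content of 50% or more had a median of -1.18 with 63.0% lower, against -0.95 and 46.3% over all genes of that class. In endoderm against mesoderm they had a median of 1.4 with 77.8% higher, against 1.24 and 57.1%, and those under 50% GC had 0.76 against 0.39.

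With a trend on transcript length taken out of each library, the median log2 fold change of ectoderm against hPSC was -0.70 for the mitochondrial genes, with 3 of 13 lower, and 0.01 for the nuclear members, with 11 higher and 12 lower. The 3 mitochondrial genes were MT-CO1 (-1.16), MT-ND4 (-1.19) and MT-ATP6 (-0.93). Mesoderm against hPSC then had 6 mitochondrial genes lower, ectoderm against endoderm had 10 lower (median -1.34), and endoderm against mesoderm had 8 higher (median 1.44). MT-ND1 and MT-ND2 stayed called higher in endoderm than in hPSC, at 1.46 and 0.98. With a trend on GC content taken out instead, a choice made with the results in view, all 13 mitochondrial genes were called in each of the comparisons of ectoderm with hPSC, mesoderm with hPSC, ectoderm with endoderm and endoderm with mesoderm, in the same directions as before.

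**Figure D3:**
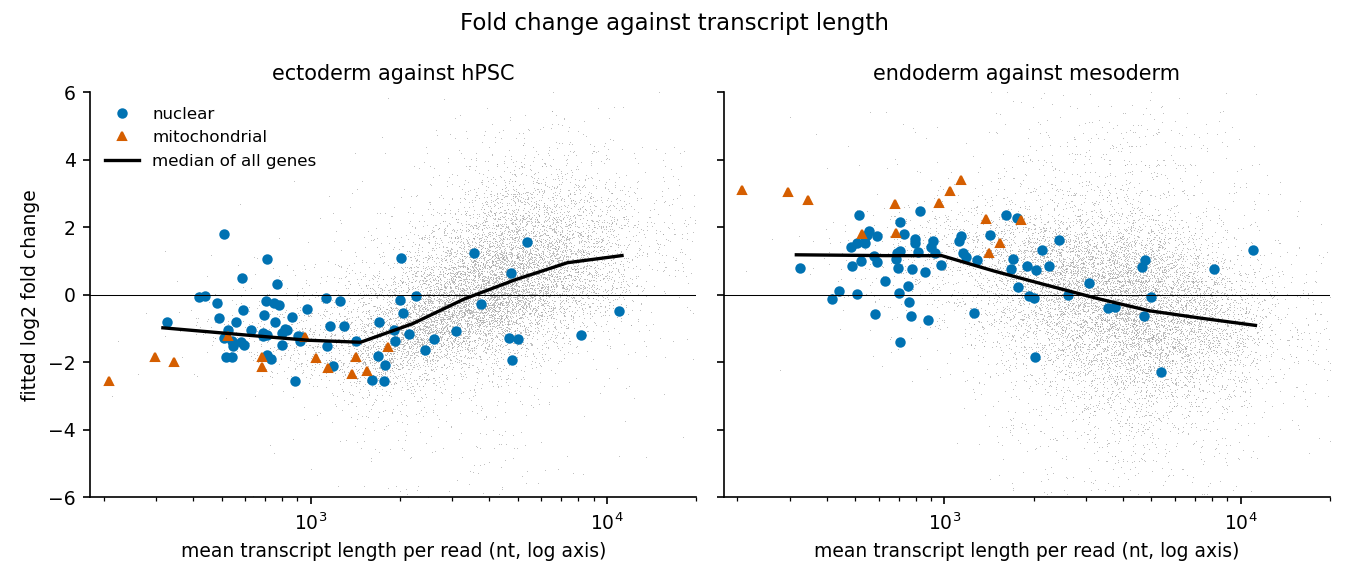
Fitted log2 fold change against mean transcript length per read (nt, log axis) for ectoderm against hPSC and for endoderm against mesoderm, with all tested genes as grey dots, their median by length as a line, nuclear members as circles and mitochondrial members as triangles. The median line lies below 0 for short genes on the left (-1.32 over the 901 genes under 1500 nt), and most mitochondrial members lie below it there and above it on the right.

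Of the nuclear members, 71 passed the filter on low counts. In ectoderm against hPSC, 41 were lower and 4 higher (24.8% and 23.8% of all genes), with a median log2 fold change of -1.05. In mesoderm against hPSC, 33 were lower and 3 higher (18.2% and 16.9% of all genes, median -0.87). Without hPSC repeat 2 the medians were -0.52 in ectoderm and -0.57 in mesoderm, and without hPSC repeat 1 they were -1.28 and -1.20. In endoderm against hPSC, 2 were lower and 1 higher (median 0.04), beside 13.7% of all genes lower and 13.4% higher. Ectoderm was lower than endoderm for 40 and higher for 6 (29.9% and 33.1% of all genes, median -0.99), endoderm was higher than mesoderm for 36 and lower for 3 (23.2% and 23.9% of all genes, median 0.97), and ectoderm and mesoderm differed for 8, with 2 higher in ectoderm (18.2% of all genes) and 6 lower (17.2%). These directions lean on the scaling. With library totals only, the splits of higher to lower, in the order given above, were 8 to 24, 3 to 25, 0 to 8, 13 to 19, 19 to 7 and 6 to 3. Splits over all 10847 genes were 3652 to 1703, 2189 to 1468, 993 to 2213, 5267 to 1958, 1475 to 4019 and 2441 to 1414. The median of the nuclear members for ectoderm against mesoderm stayed above 0, at 0.27. With the length trend taken out, the splits were 11 to 12, 3 to 7, 0 to 4, 19 to 14, 12 to 10 and 6 to 4. Over all genes they were then 1742 to 2163, 1621 to 1802, 1610 to 1376, 2774 to 3188, 2504 to 2131 and 1562 to 1753. For ectoderm against endoderm the median of the nuclear members was then -0.02. Leaving out 1 library changed the calls over all genes as well as those of the members. Single libraries moved the counts too: the 41 lower in ectoderm than hPSC became 16 without ectoderm repeat 1 and 17 without ectoderm repeat 2, and the 33 in mesoderm became 14 without mesoderm repeat 1 and 8 without mesoderm repeat 2. The 36 higher in endoderm than mesoderm became 20 without mesoderm repeat 2 and 24 without endoderm repeat 2. Endoderm against hPSC gave 16 higher and 3 lower without hPSC repeat 2, 9 lower without hPSC repeat 1, 1 lower without either ectoderm repeat, and 0 without either endoderm repeat. Ectoderm against mesoderm gave 7 higher and 10 lower without hPSC repeat 1, 8 and 9 without hPSC repeat 2, 0 and 3 without ectoderm repeat 1, 0 without ectoderm repeat 2, 2 and 2 without either endoderm repeat, and 1 in all without either mesoderm repeat.

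**Figure D4:**
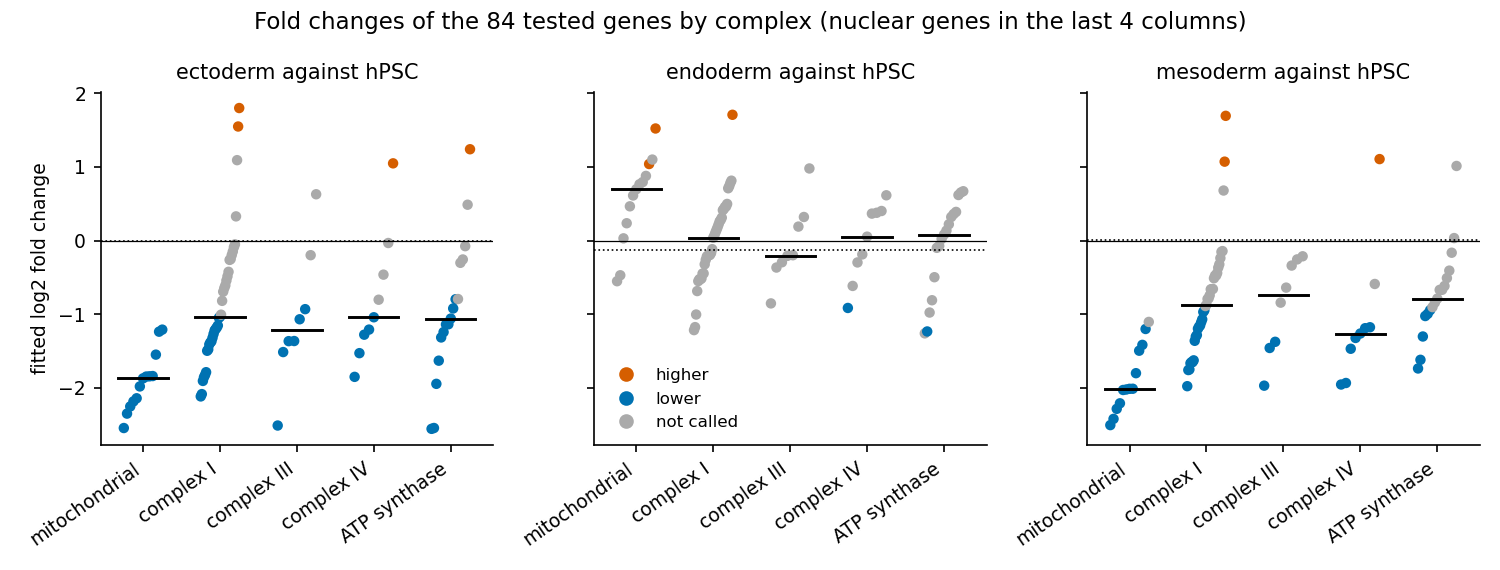
Fitted log2 fold changes of the 84 tested members for each layer against hPSC, 1 point per gene, with the mitochondrial genes in the left column of each panel and the nuclear genes by complex, coloured by call; solid bars are column medians and the dotted line is the median of all genes tested. In ectoderm 13 mitochondrial and 41 of 71 nuclear members are called lower, and in endoderm 5 of 84 members are called in all.

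Complex I is the entry point of electrons from NADH. Among the 37 nuclear genes counted under it by name, 19 were lower and 2 higher in ectoderm than in hPSC. Against endoderm, 20 were lower and 3 higher in ectoderm. Of all genes, 24.8% and 29.9% were lower in these comparisons, and 23.8% and 33.1% higher. NDUFS7, which carries the iron-sulfur cluster nearest to ubiquinone, had 88.6 and 110 CPM in hPSC, 54.6 and 56.3 in endoderm, 25.4 and 37.2 in ectoderm, and 39.5 and 35.7 in mesoderm. Both hPSC libraries were above all others, and the log2 fold changes were -2.12 ± 0.34 in ectoderm (adjusted p = 0.00017) and -1.65 ± 0.36 in mesoderm (adjusted p = 0.00233), both kept under every alternative run. NDUFV1, which binds NADH, had 241 and 216 CPM in mesoderm, 196 and 327 in hPSC, 135 and 220 in endoderm, and 94.8 and 75.5 in ectoderm. Both ectoderm libraries were below the other 6, and the change against hPSC was -2.08 ± 0.38 (adjusted p = 0.000487), kept under every alternative run. NDUFS6, an accessory subunit with a zinc site, was lowest in mesoderm, at 20.7 and 23.8 CPM, against 59.7 and 87.2 in hPSC, 47.4 and 49.6 in ectoderm and 75.1 and 92.1 in endoderm. Its change of endoderm against mesoderm, 2.47 ± 0.40 (adjusted p = 0.000165), was the furthest from 0 among the nuclear members there. NDUFA11, a membrane-arm subunit, and NDUFB9 were lower in ectoderm than in endoderm by -2.26 ± 0.34 and -2.20 ± 0.37 on the log2 scale (adjusted p = 4.18e-05 and 0.000118).

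A few accessory subunits of complex I ran the other way. NDUFA5 (chr7:123536997-123557818, minus strand) had 152 and 104 CPM in ectoderm and 86.6 and 75.4 in mesoderm, against 23.1 and 40.9 in hPSC and 12.0 and 10.2 in endoderm. The ectoderm and mesoderm libraries did not overlap with the others, and the log2 fold changes were 1.55 ± 0.37 for ectoderm against hPSC (adjusted p = 0.00334) and 2.76 ± 0.44 for ectoderm against endoderm (adjusted p = 7.81e-05). With the GC trend taken out, the first became -0.10 and the second 0.78 (adjusted p = 0.194), and with the length trend taken out the first was 0.93 and not called. NDUFS4, an accessory subunit needed for a stable enzyme, had 38.1 and 47.6 CPM in ectoderm, 26.4 and 29.8 in mesoderm, 13.5 and 16 in hPSC, and 1.71 and 8.53 in endoderm, the first of which is below the floor of 3 counts. Its change of ectoderm against endoderm was 2.27 ± 0.55 (adjusted p = 0.00228), kept without each library in turn (3.87 without endoderm repeat 2) and not called with the GC trend taken out. NDUFB3 was low in hPSC, at 5.78 and 7.12 CPM, at or near the floor of 3 counts, so its fold changes against hPSC are imprecise. It reached 18.8 and 15.4 CPM in endoderm, 29.6 and 32.1 in ectoderm and 33.9 and 15.9 in mesoderm. It was the one nuclear member called higher in endoderm than in hPSC, by 1.71 ± 0.61 (adjusted p = 0.0497), and this call was lost without hPSC repeat 1 (1.43), either ectoderm repeat (1.77), endoderm repeat 1 (1.67) or endoderm repeat 2 (1.89). Per kilobase, NDUFA13 and NDUFB2 had the highest mean levels of the nuclear complex I subunits, at 309 and 291 CPM per kilobase, against 11.8 for NDUFA5 and 11.2 for NDUFS4.

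In complex III, which passes electrons from ubiquinol to cytochrome c, 6 of 8 tested nuclear members were lower in ectoderm than in hPSC and 0 were higher (24.8% and 23.8% of all genes). UQCRC1 (chr3:48598988-48609646, minus strand), a large core subunit, was the most abundant nuclear member of all per kilobase, at 836 CPM. It had 1134 and 2092 CPM in hPSC, 2369 and 2854 in endoderm, 495 and 293 in ectoderm, and 821 and 701 in mesoderm. Endoderm was highest, then hPSC, mesoderm and ectoderm, with no overlap between the groups. Its log2 fold changes were -2.51 ± 0.42 for ectoderm against hPSC (adjusted p = 0.000233), -3.49 ± 0.43 for ectoderm against endoderm (adjusted p = 8.68e-06) and 2.35 ± 0.41 for endoderm against mesoderm (adjusted p = 0.000355), and all 3 were kept under every alternative run. The change of endoderm against hPSC, 0.98 ± 0.40, was not called (adjusted p = 0.0793). UQCRH, the hinge subunit, was lower in ectoderm and mesoderm than in hPSC, by -1.51 ± 0.30 and -1.97 ± 0.33 (adjusted p = 0.000832 and 0.000311), and neither was called with the length trend taken out (-0.35 and -0.86). Its near-copy UQCRHL had 1 read in the 8 libraries together and was not tested. UQCRB, a small subunit at the quinone site, ran against the rest of the complex, with 72.8 and 73.4 CPM in ectoderm, 36.6 and 33.8 in hPSC, 13.7 and 17.1 in endoderm and 45.2 and 25.8 in mesoderm. Its change of ectoderm against endoderm was 1.48 ± 0.39 (adjusted p = 0.00421) and became -0.33 with the GC trend taken out, and it was not called by DESeq2 (1.51) or with the length trend taken out (0.87).

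In complex IV, cytochrome oxidase, 5 of 9 tested nuclear members were lower and 1 higher in ectoderm than in hPSC, and 7 were lower and 1 higher in mesoderm (of all genes, 24.8% were lower in ectoderm and 18.2% in mesoderm). COX5A, which sits next to the catalytic core, had 125 and 80.1 CPM in hPSC, 56.4 and 83.6 in endoderm, 35.6 and 58.9 in ectoderm, and 26.4 and 35.7 in mesoderm. Its change in mesoderm was -1.93 ± 0.39 (adjusted p = 0.00139), kept under every alternative run, and hPSC overlapped with endoderm. COX8A, a small membrane subunit, had 73.2 and 114 CPM in hPSC, 82.0 and 118 in endoderm, 41.5 and 28.9 in ectoderm, and 35.8 and 21.8 in mesoderm. Ectoderm and mesoderm overlapped and were both below hPSC and endoderm, with log2 fold changes of -2.25 ± 0.38 for ectoderm against endoderm (adjusted p = 0.000134) and 2.36 ± 0.43 for endoderm against mesoderm (adjusted p = 0.000442). COX6C was higher in ectoderm and mesoderm, at 66.1 and 67.2 and at 67.8 and 53.6 CPM, than in hPSC (30.8 and 17.8) and endoderm (10.2 and 20.5). The change of ectoderm against endoderm was 1.35 ± 0.41 (adjusted p = 0.00925) and was lost without endoderm repeat 1 (0.95) or with the GC trend taken out (0.27). Its calls against hPSC, 1.05 ± 0.38 in ectoderm (adjusted p = 0.0311) and 1.11 ± 0.40 in mesoderm (adjusted p = 0.042), were lost without hPSC repeat 2 (0.91 and 0.90), and the ectoderm call without either ectoderm repeat (1.19). The mesoderm call was lost as well without either ectoderm repeat (1.16) or mesoderm repeat 1 (0.99) or 2 (1.33). COX7C had 152 and 107 CPM in hPSC, 58.1 and 49.5 in endoderm, 83.8 and 82.7 in ectoderm, and 49.0 and 71.5 in mesoderm, so every differentiated library was below hPSC. Its call in endoderm, -0.91 ± 0.31 (adjusted p = 0.0417), was lost without any library other than hPSC repeat 2, over values of -0.76 to -0.92, while the calls in ectoderm (-1.04 ± 0.29) and mesoderm (-1.32 ± 0.32) had adjusted p = 0.00848 and 0.0046. The ectoderm call of COX7C was lost without ectoderm repeat 1 (-0.92) or 2 (-0.87), and the mesoderm call without mesoderm repeat 1 (-1.01).

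Several complex IV subunits have tissue forms, known from muscle, testis or germ cells, and these were nearly silent. COX6A1, the widespread form, had 214 and 333 CPM in hPSC, 323 and 358 in endoderm, 189 and 244 in ectoderm, and 158 and 117 in mesoderm, whereas COX6A2, the form known from heart and skeletal muscle, had 2 reads in all, both in hPSC repeat 2. COX6B1, a widespread form too, had 52.5 to 128 CPM in the 8 libraries. COX6B2, the form known from testis, had 5 and 8 reads in hPSC (9.63 and 14.2 CPM), 0 and 1 in endoderm, 1 and 1 in ectoderm, and 0 and 0 in mesoderm, so reads above the floor were in hPSC alone. It did not pass the filter and no fold is given. COX7A2 had 91.3 to 155 CPM in the 8 libraries, and COX7A1 was listed only by an antisense transcript, which the name rule leaves out.

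ATP synthase had 11 of 17 tested nuclear members lower and 1 higher in ectoderm than in hPSC, and 8 lower and 1 higher in ectoderm than in endoderm, where 24.8% and 29.9% of all genes were lower. ATP5F1B (chr12:56638175-56645984, minus strand), the catalytic beta subunit, had 924 and 1418 CPM in hPSC, 1470 and 1532 in endoderm, 325 and 228 in ectoderm, and 369 and 556 in mesoderm. The order was endoderm, hPSC, mesoderm, ectoderm, with no overlap. Its log2 fold changes were -2.54 ± 0.38 for ectoderm against hPSC (adjusted p = 0.000102), -3.20 ± 0.39 for ectoderm against endoderm (adjusted p = 6.92e-06) and 2.27 ± 0.37 for endoderm against mesoderm (adjusted p = 0.000209), all kept under every alternative run. ATP5F1A (chr18:46081189-46098296, minus strand), the alpha subunit that pairs with beta in the catalytic head, had 1223 and 1868 CPM in hPSC, 1317 and 1247 in endoderm, 667 and 440 in ectoderm, and 924.5 and 955 in mesoderm. The hPSC and endoderm libraries overlapped, and ectoderm was lowest. ATP5F1A was lower in ectoderm than in hPSC by -1.94 ± 0.36 (adjusted p = 0.000525) and than in endoderm by -1.97 ± 0.36 (adjusted p = 0.000246), and its change of endoderm against hPSC was 0.02 ± 0.35. ATP5F1C, the gamma subunit that turns within the head, had 119 and 183 CPM in hPSC and 113 and 85.8 in ectoderm. ATP5PF, coupling factor 6 in the stalk, was highest in ectoderm, at 145 and 166 CPM, against 82.8 and 81.8 in hPSC, 39.3 and 27.3 in endoderm and 88.5 and 57.6 in mesoderm, and its change of ectoderm against endoderm was 1.46 ± 0.34 (adjusted p = 0.00168), not called with the GC trend taken out (0.61). ATP5F1E, the epsilon subunit, was the one called higher in ectoderm than in hPSC, by 1.24 ± 0.47 (adjusted p = 0.0381), at 61.8 and 62.0 against 19.3 and 19.6 CPM, and was lost without hPSC repeat 1 (1.07), ectoderm repeat 1 (1.37) or ectoderm repeat 2 (1.4). ATP5F1D, the delta subunit, was carried by 1 library: it had 127 CPM in hPSC repeat 1 and 10.7 in hPSC repeat 2, and its change of -2.56 ± 0.66 in ectoderm (adjusted p = 0.00493) was -0.14 without hPSC repeat 1 and was not called without ectoderm repeat 1 (-2.26) or 2 (-2.61).

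Subunit c, which forms the turning ring of ATP synthase, is encoded by 3 nuclear genes with the same mature protein, and these differed in their pattern. ATP5MC2 had 162 and 189 CPM in hPSC, 61.5 and 58.0 in endoderm, 124 and 150 in ectoderm, and 96.0 and 109 in mesoderm, and its change in endoderm was -1.23 ± 0.32 (adjusted p = 0.0105), lost without either endoderm repeat (-1.15 and -1.14). ATP5MC3 had 79.0 and 67.6 CPM in hPSC, 92.2 and 92.1 in endoderm, 33.9 and 28.9 in ectoderm, and 35.8 and 53.6 in mesoderm, and its change of ectoderm against endoderm was -2.30 ± 0.31 (adjusted p = 2e-05). ATP5MC1 had 65.5 and 96.1 CPM in hPSC and 25.8 to 54.6 in the differentiated libraries. Endoderm was thus the group with the lowest ATP5MC2 and the highest ATP5MC3. With the length trend taken out, the ATP5MC2 changes against hPSC in ectoderm and mesoderm were 0.37 and -0.09.

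The promoter letters were spread over both directions of change. Of the 34 nuclear members lower in ectoderm than in endoderm with a promoter in the table, 8 had an NRF1 match, 8 a GABPA match, 4 a YY1 match and 2 an ESRRA match. Of the 4 higher members with a promoter, 1, 1, 2 and 1 had them. UQCRC1, the member furthest below 0 in that comparison, had matches to both NRF1 and YY1, and NDUFS4, among the members furthest above 0, had a YY1 match. GABPA itself, the DNA-binding subunit of the factor, rose in ectoderm against hPSC by 2.74 ± 0.45 on the log2 scale (adjusted p = 0.000208). Its level went from 5.78 and 7.12 CPM in hPSC, at or near the floor of 3 counts, to 63.5 and 54.8 CPM. The size of this change is imprecise, and it was not called with the GC trend taken out (0.91). NRF1 had 63.5 and 81.8 CPM in hPSC and 74.5 and 106 in ectoderm (-0.13 ± 0.34, adjusted p = 0.769).

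Long reads also showed which transcript of a gene was used. Of the nuclear members, 16 had at least 2 transcripts that passed the filter, among 2601 such genes. In ectoderm against hPSC, 3 of the 16 changed their transcript use (5.69% of the 2601 genes did), by edgeR's test of differential use within a gene. The 2 described here, ATP5F1C and NDUFV1, each gained a form that keeps introns. ATP5F1C gained a form that keeps introns 8 and 9 (chr10:7802855-7806973 and chr10:7807011-7807658, 4119 and 648 nt). It was 4.84% and 3.88% of the reads in hPSC, 4.82% and 1.18% in endoderm, 17.2% and 20.5% in ectoderm, and 8.77% and 16.7% in mesoderm (adjusted p = 0.00478). NDUFV1 gained a form that keeps intron 1 (chr11:67607077-67608395, 1319 nt). It was 13.7% and 4.35% in hPSC, 13.9% and 10.9% in endoderm, 25% and 42.5% in ectoderm, and 21.9% and 22.9% in mesoderm (adjusted p = 0.00733). For both genes the ectoderm libraries were above all 6 others. Both of these forms extend a reference transcript. A second ATP5F1C form with kept introns (5833 nt) is outside these shares and the test. It had 18 and 12 reads in ectoderm, 3 and 2 in hPSC, 2 and 1 in endoderm, and 5 and 3 in mesoderm. The spliced forms measure 1103 and 1556 nt and the forms with introns 5868 and 2838 nt, so use moved toward the longer form in the group whose reads came from the longest transcripts, and the part of length in it was not tested. The call of ATP5F1C was lost without ectoderm repeat 1 (adjusted p = 0.112), that of NDUFV1 without hPSC repeat 2 (adjusted p = 0.0982), and neither was called without ectoderm repeat 2.

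**Figure D5:**
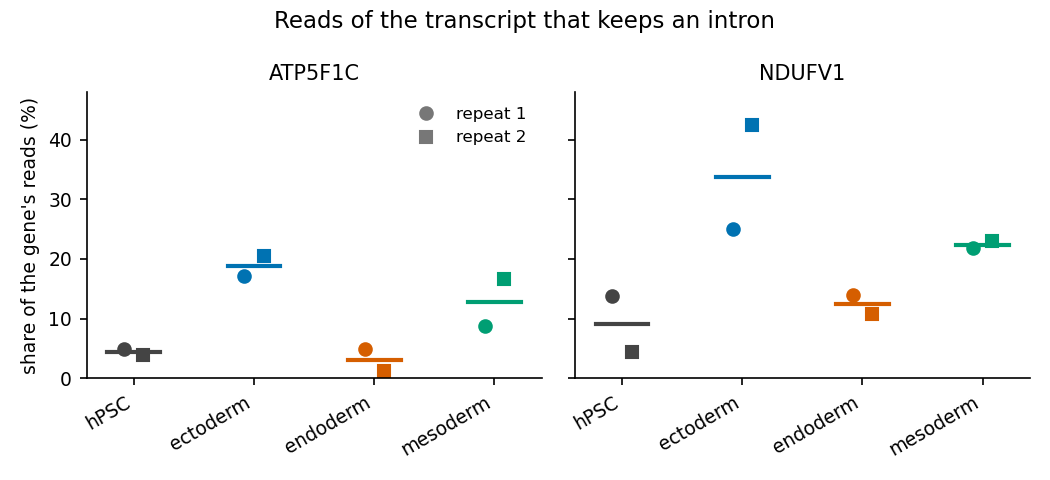
Percent of each gene's reads in 1 form that keeps introns, for ATP5F1C (5868 nt) and NDUFV1 (2838 nt), in the 8 libraries. Circles are repeat 1, squares repeat 2 and lines the group mean. A second ATP5F1C form with kept introns (5833 nt) is not included. Both ectoderm libraries are highest for each gene, at 17.2% and 20.5% for ATP5F1C, with hPSC at 3.88% to 13.7% over both genes.

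In endoderm, edgeR called 0 of the 16 genes for transcript use (5.07% of the 2601 genes), 0 had an unadjusted p under 0.05, and the Simes method called 0. In mesoderm it called 0 as well (7.04% of the 2601 genes), with 5 at an unadjusted p under 0.05 and 0 called by the Simes method. The nearest in mesoderm were NDUFA10 (adjusted p = 0.0506) and NDUFV1 (adjusted p = 0.0514). Without hPSC repeat 1, 3 were called in mesoderm, and without each of the others except mesoderm repeat 2, 1 was. That gene was NDUFA11, which was not among the 16 genes with the full set of libraries. A cassette exon of ATP5F1C, 37 nt long with 4 coding bases (chr10:7806974-7807010), lies between introns 8 and 9 and is known to be skipped in muscle. The form without it was 3.70% and 5.32% of the reads of the skipping and the main spliced form in hPSC, 6.49% and 2.44% in endoderm, 31.9% and 16% in ectoderm, and 13.3% and 16.3% in mesoderm. These rest on 2 to 29 skipping reads per library and were not tested. New transcripts, those that do not match the reference, held 1.85% to 5.91% of nuclear member reads in a library, against 12.5% to 21.9% of the reads of all transcripts named for a gene. Of the mitochondrial members, MT-CO3 was counted through a transcript longer than the reference one.

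Genes that serve the chain outside the name rule gave values in the same fit, and their lists were chosen with earlier results known. Their counts stand beside 23.8% of all genes higher and 24.8% lower in ectoderm against hPSC, 16.9% and 18.2% in mesoderm, and 13.4% and 13.7% in endoderm. Of all genes under 1500 nt, 2.55% were higher and 64.6% lower in ectoderm, 4.88% and 42.5% in mesoderm, and 14.0% and 10.4% in endoderm. The lists were not compared with other genes of their length or GC content, so the part of length in their counts was not tested. Of 11 tested chain subunits that the names miss, 0 were higher and 8 lower in ectoderm than in hPSC, 0 and 6 in mesoderm, and 0 and 3 in endoderm. SDHC, the membrane anchor of complex II, had 98.2 and 155 CPM in hPSC, 195 and 188 in endoderm, 14.4 and 24.8 in ectoderm, and 32 and 43.7 in mesoderm, so that endoderm was highest, then hPSC, mesoderm and ectoderm, with no overlap. Its change in ectoderm against hPSC was -3.16 ± 0.40 (adjusted p = 3.15e-05). CYCS, cytochrome c, was lower in endoderm than in hPSC, at 10.2 and 13.6 against 59.7 and 40.9 CPM (-1.71 ± 0.43, adjusted p = 0.00872), a call lost without endoderm repeat 1 (-1.41) or 2 (-1.89). Assembly factors, which help build the complexes, had 2 higher and 16 lower of 40 in ectoderm, 0 and 10 in mesoderm, and 0 and 7 in endoderm. ECSIT, a complex I assembly factor, fell in ectoderm with a log2 fold change of -2.79 ± 0.38 (adjusted p = 4.72e-05). Citrate cycle genes had 1 higher and 11 lower of 18 in ectoderm, 1 and 6 in mesoderm, and 1 and 3 in endoderm, with MDH2, malate dehydrogenase, at 547 and 866 CPM in hPSC and 193 and 118 in ectoderm (-2.65 ± 0.38, adjusted p = 7.49e-05). Mitochondrial ribosomal proteins, which translate the 13 mitochondrial mRNAs, had 3 higher and 47 lower of 74 in ectoderm, 0 and 36 in mesoderm, and 4 and 15 in endoderm, with MRPL12 at -2.39 ± 0.34 in ectoderm (adjusted p = 8.22e-05).

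Among the genes that copy, transcribe and stabilise mitochondrial DNA and RNA, calls went both ways in ectoderm, at shares near those of all genes, and mostly lower in the other layers. Of 31 tested, 6 were higher and 7 lower in ectoderm than in hPSC, 0 and 8 in endoderm, and 1 and 8 in mesoderm. TFAM, which packages mitochondrial DNA and starts its transcription, rose in ectoderm by 2.96 ± 0.54 (adjusted p = 0.000498), from 7.7 and 1.78 CPM in hPSC to 52.5 and 46.5, and in mesoderm by 2.52 ± 0.61 (adjusted p = 0.00501), to 24.5 and 39.7, while endoderm had 6.83 and 10.2 CPM. The hPSC values are 4 reads and 1 read, the latter under the floor of 3 counts, so the size of both changes is imprecise, and the mesoderm call was lost without mesoderm repeat 2 (2.21). LRPPRC, which stabilises mitochondrial mRNAs, had 142 and 33.8 CPM in hPSC, 10.2 and 20.5 in endoderm, 295 and 378 in ectoderm, and 119 and 133 in mesoderm, and it was higher in ectoderm than in endoderm by 3.68 ± 0.51 (adjusted p = 2.45e-05). TFAM and LRPPRC were thus highest in ectoderm, and LRPPRC was lowest in endoderm. A link to the levels of the 13 mitochondrial mRNAs was not tested. The TFAM change of ectoderm against endoderm, 1.76, was not called by DESeq2 (1.80) or with the length trend taken out (1.08). With the GC trend taken out it was -0.025, and without endoderm repeat 1 it was 1.52. TWNK, the mitochondrial DNA helicase, fell in ectoderm, endoderm and mesoderm, with log2 fold changes of -2.16 ± 0.37, -1.57 ± 0.42 and -4.22 ± 0.57 (adjusted p = 0.000326, 0.0123 and 4.9e-05), and its endoderm call was lost without hPSC repeat 2 (-1.16), endoderm repeat 1 (-1.77) or endoderm repeat 2 (-1.26). Of 8 tested regulators of mitochondrial gene programs, 2 were higher and 1 lower in ectoderm, 0 and 2 in mesoderm, and 0 and 1 in endoderm. MYC, a broad growth regulator, fell in each layer (with PPRC1 the other one called in mesoderm), at 220 and 210 CPM in hPSC, 47.8 and 34.1 in endoderm, 26.3 and 26.9 in ectoderm, and 41.4 and 59.5 in mesoderm (-3.43 ± 0.33 in ectoderm, adjusted p = 1.92e-06).

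Some mitochondrial counts could hold reads of other transcripts, since the use of strand in counting is not given in the sources used here. A minus-strand transcript listed under MT-TP (chrM:14743-16013) covers MT-CYB from end to end. It had 479 and 1278 reads in hPSC, 960 and 1336 in endoderm, 533 and 445 in ectoderm, and 165 and 178 in mesoderm, against 35 and 103, 101 and 123, 53 and 31, and 12 and 16 reads counted for MT-CYB in these groups. The minus-strand transcript had more reads than MT-CYB in all 8 libraries, and the level of MT-CYB is therefore uncertain. The reference transcript of MTCO1P12, a nuclear copy of MT-CO1 on chromosome 1, had 58 and 124, 54 and 66, 76 and 81, and 33 and 31 reads in the same order, far below MT-CO1 itself. Of the mitochondrial rRNAs, MT-RNR1 had 70 and 171 reads in hPSC, 272 and 309 in endoderm, 92 and 98 in ectoderm, and 40 and 50 in mesoderm, and MT-RNR2 had 370 and 663, 637 and 771, 800 and 671, and 346 and 326 in the same order. The reads in this paragraph are not scaled to library totals, which were largest in ectoderm, so they do not rank the groups. Many nuclear members have processed copies in the genome, and how reads shared by such copies were counted is likewise not given. The 4 nuclear members that failed the filter were COX6A2, COX6B2, ATP5MGL and UQCRHL, each with at most 8 reads in any library.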

How the data were processed

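RNA of 8 libraries (4 groups, 2 repeats) was counted per assembled transcript. Per the submitters' processing notes the reads were handled with minimap2 and StringTie on GRCh38 (hg38); the counting step, versions, annotation release and use of strand are not given in the sources used here. The deposited count values are whole raw reads per transcript, as deposited by the authors. The 2 endoderm columns are listed as estimated in the working notes only because of a naming clash in a unit check: those expected counts, as deposited by the authors, are also whole, and nothing was rounded. CPM values deposited by the authors gave back the counts when scaled by totals 15 to 59 reads below the library totals, and were used only for that check; CPM printed here was computed from the counts, without TMM, so CPM ratios and fitted fold changes differ. Positions of other features come from the deposited GTF, per the file headers.

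Counts were summed per gene and tested with edgeR 4.0.16 in R 4.3.3 (TMM, filterByExpr with a minimum count of 10, quasi-likelihood fit over all 8 libraries, Benjamini-Hochberg adjusted p under 0.05; SE is the fold change divided by the root of F), giving 10847 genes in 6 comparisons at a common coefficient of variation of 0.212. Transcript use was tested with edgeR's diffSpliceDGE. Both tests were tested on simulated data. Alternatives were DESeq2 1.42.0, other scalings, filters and member definitions, the replicate block, removal of length or GC trends and leaving out each library. Eligible to be named were all mitochondrial members, the most abundant nuclear member of each complex and the paralog families. So were up to 5 nuclear members each with the highest and lowest called fold change per comparison. For these the higher group had both repeats at 10 CPM or more. Up to 4 members per comparison for transcript use were eligible too. From the lists, up to 3 called genes per list and comparison with the smallest p were eligible. Not all eligible genes are described. Transcripts that matched a member's name but were antisense, intronic or pseudogenes were left out. There were 0 columns of no sample. The members and lists were chosen with earlier results of these data known. Promoter sequences are from RefSeq (GRCh38.p14) and mitochondrial ones from the GENCODE 29 transcripts on GRCh38. The result of 1 further member is not reported here.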

Additional observations from a re-analysis of the deposited data

Results flagged for a closer look

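MT-ND1 and MT-ND2, both core membrane subunits of complex I, moved in opposite directions in different layers: they were called higher in endoderm than in hPSC and lower in ectoderm and in mesoderm than in hPSC. The difference between layers was itself called by edgeR. For ectoderm against endoderm the log2 fold change was -2.76 ± 0.36 for MT-ND1 (adjusted p = 1.25e-05) and -2.91 ± 0.37 for MT-ND2 (adjusted p = 1.16e-05). For endoderm against mesoderm it was 2.72 ± 0.37 for MT-ND1 (adjusted p = 4.18e-05) and 3.06 ± 0.39 for MT-ND2 (adjusted p = 2.36e-05). Both endoderm libraries were above all 6 others for each gene. All 4 of these differences were kept under every alternative run. The changes against hPSC were not all kept: for MT-ND1 in ectoderm and in mesoderm the calls were lost without hPSC repeat 2 (-0.52 and -0.55), and for MT-ND2 in endoderm without hPSC repeat 1 (0.58). They were also lost without either repeat of the layer itself, for MT-ND1 in ectoderm (-1.07 each) and mesoderm (-1.18 and -1.04) and for MT-ND2 in endoderm (1.32 and 0.94). With the length trend removed, the lower calls of MT-ND1 in ectoderm (-0.04) and mesoderm (-0.37) and of MT-ND2 in ectoderm (-0.68) were lost.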

How the results depend on the processing

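Of 151 results for named members that passed the threshold, 49 kept their direction and call under every alternative, and 69 under every one except removal of the length trend. The count of members called was 58 for ectoderm against hPSC, 5 for endoderm, 48 for mesoderm, 59 for ectoderm against endoderm, 8 for ectoderm against mesoderm and 52 for endoderm against mesoderm. DESeq2 gave 36 for ectoderm against hPSC and 3 for ectoderm against mesoderm. Removing the length trend gave 26 for ectoderm and 16 for mesoderm against hPSC and 30 for endoderm against mesoderm. Endoderm against hPSC gave 10 with library totals, 8 with no filter, 2 with only the groups compared, and 3 with known transcripts only; it gave 3 with mitochondrial transcripts left out before scaling, since 2 of the 5 were mitochondrial. Fitting only the groups compared gave 29 for mesoderm against hPSC and 18 for ectoderm against mesoderm. Leaving out 1 library gave 25 to 65 (ectoderm), 1 to 30 (endoderm) and 15 to 64 (mesoderm) against hPSC, 44 to 66 for ectoderm against endoderm, 0 to 18 for ectoderm against mesoderm and 33 to 61 for endoderm against mesoderm; where this leaves a group with 1 sample, that sample is assumed to vary like the other groups. Members with changed transcript use were 3, 0 and 0; known transcripts only gave 1 in ectoderm, and all transcripts with at least 10 reads gave 1 in mesoderm, while leaving out 1 library gave 0 to 3, 0 to 0 and 0 to 3. The log2 ratio of mitochondrial to nuclear reads against hPSC was -1.04 in ectoderm without ATP5F1A, ATP5F1B and UQCRC1 (chosen after seeing the data, like the GC trend), 0.43 in endoderm without MT-CO1 to MT-CO3, and 1.10 in endoderm and -0.94 in mesoderm as a median per gene; leaving out 1 library it was -1.01 to -0.32, -0.39 to 0.30 and -0.87 to -0.18. Directions reversed for ectoderm against hPSC with the GC trend removed in NDUFA5 (-0.10) and ATP5F1E (-0.14), and with the length trend removed in ATP5MC2 (0.37), COX7C (0.091) and NDUFS6 (0.12). They also reversed for UQCRB with the GC trend (-0.33) and for COX7A2 with the length trend (0.45), both ectoderm against endoderm, and for COX7A2 endoderm against mesoderm with the length trend (-0.22). For ectoderm against endoderm with the GC trend removed, TFAM (-0.025) and CYCS (-0.0043) reversed too. The cause was not tested. The differences between repeat 1 and repeat 2 within a group correlated between groups at -0.03 to 0.15, and same-numbered repeats share only a number. With the replicate block the counts were 57, 4, 42, 58, 6 and 52. Depth limits genes near 3 counts, such as NDUFS4 in endoderm.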
